A study of Mus musculus with 2 samples.

Results

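The genes described here are 37 enzymes and transporters through which a cell takes up glucose, carries it down to pyruvate, diverts it into pentose phosphates or returns it toward glucose. They were taken by name from a table of 30868 features, and all 37 were found. By role, 19 encode enzymes of glycolysis and its side steps and 6 make or break fructose bisphosphates. Another 7 belong to the pentose phosphate pathway, and 5 handle glucose entry, glucose 6-phosphate hydrolysis and glucose 1-phosphate. The RNA came from MIN6, a mouse insulinoma line that serves as a beta cell model. The design has 2 libraries. The treatment label of one reads normal, and that of the other, called treated below, names high glucose with palmitate. The treatment protocol gives 33.3 mmol/l of glucose, 0.4 mmol/l of palmitate and 0.5% of albumin. It stands on the records of both libraries, so what the normal cells were kept in is not known from it. All cells are 1 line, and with 1 library per group no difference below has a replicate check.

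Glycolysis splits each glucose into pyruvate, and in beta cells its rate sets how much ATP closes the potassium channel that triggers insulin release. The first committed step is run by phosphofructokinase and opposed by fructose-1,6-bisphosphatase, and the level of fructose 2,6-bisphosphate, made and removed by the PFKFB enzymes, tips the balance between them. Glucose 6-phosphate may instead enter the pentose phosphate pathway, whose oxidative arm yields NADPH and whose non-oxidative arm returns sugars to glycolysis. Many of these steps have several isozymes, encoded by separate genes with their own tissue patterns, and beta cells are known for the glucose-6-phosphatase of islets, G6PC2.

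Values are RPKM, reads scaled by the length of the listed exons and by the reads of the library. The libraries held 44149406 reads (normal) and 43727919 reads (treated). A ratio is the treated over the normal RPKM, with an exact 95% interval in brackets that covers counting error only and compares these libraries, not the conditions. Features whose mean RPKM was 1 or more were compared on log2 of RPKM plus 0.5, a scale that understates the differences of low genes, and there were 13947 of them. Their median log2 ratio was 0.0028. Of the 37 genes, 34 reached that mean, and no gene did so through 1 library alone. The exceptions were Hk2, Pfkfb1 and Fbp1.

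The beta cell label was checked first. All 13 beta cell markers listed had a mean RPKM of at least 1, among them Ins2, Iapp, Pdx1 and Slc2a2. Of these 13, which include Slc2a2 and G6pc2 of the 37 genes, 10 had a log2 ratio below 0, with a median of -0.17. The ratio was 0.527 for Ins1, 0.712 for Mafa and 0.771 for Pdx1, whereas Chgb had 1.34 and Iapp 1.006. The list summed to 11813 RPKM in the normal library versus 13143 in the treated one, most of it Iapp and Chgb. The 4 skeletal muscle markers with a row summed to 0.262 RPKM in the normal library versus 0.201 in the treated one, the 3 acinar markers to 0.525 and 0.514, and the 2 fibroblast markers to 0.308 and 0.287. The ductal list summed to 241.8 and 411.5 RPKM, nearly all of it from Spp1 at 225.7 and 393.5, while Krt7 had 16.1 and 18.0 RPKM with a ratio of 1.11 (1.07 to 1.15) and Krt19 was at 0 in both libraries. The leukocyte list summed to 0.985 and 2.10 RPKM, mostly Cd68, with Cd3e at 0. Long and nuclear non-coding RNAs are often read for RNA quality. All 4 measured members were higher in the treated library, with a median log2 ratio of 0.38. Malat1, the most abundant, had a ratio of 1.04 (1.03 to 1.05), Neat1 one of 1.23 and Snhg1 one of 1.40. Rn7sk, at 0.821 (normal) and 2.63 RPKM (treated), had a ratio of 3.20 (1.64 to 6.72). Only its treated level reached 1 RPKM, so the filter favoured its direction, and the median rests partly on it. The part of these RNAs, of the beta cell markers, of Gcg, Sst, Ttr, Spp1, Krt7 and Cd68 in the differences below was not tested. In bulk RNA, fewer cells of a kind and less RNA per cell cannot be told apart.

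The treated library held less RNA of glycolysis as a whole, more of G6pdx and Pgd, the NADPH-yielding enzymes of the oxidative pentose phosphate arm, and much more of 1 gene, Fbp2. Of the 34 genes 25 had a log2 ratio below 0, a share of 73.5% against 49.3% of all features tested, and 9 were above 0, where 50.7% of all features were. At least 1.2-fold lower were 6 genes, a share of 17.6% against 8.84% of all features, and these were Gpi1, Pfkl, Pgk1, Pfkfb3, Slc2a2 and G6pc2. At least 1.2-fold higher were 3, Fbp2, G6pdx and Pgm2, a share of 8.82% that lies close to the 8.68% of all features. Pgd, G6pc3 and Aldoc, with plain ratios of 1.23, 1.22 and 0.823, passed 1.2-fold as plain ratios but not on the scale used. Pgm1 and Eno1, with 0.834 and 0.837, lay just inside 1.2-fold on both. At 1.5-fold there was 1 higher gene, Fbp2, where 1.74% of all features were that much higher, and no lower one, where 1.48% of all features were. The counting interval lay below 1 for 19 genes and above 1 for 5. Over all features tested these shares were 22.3% and 22.0%. Were each read pair counted as 2 reads, the intervals would be too narrow. Taken from reads divided by 2, they lay below 1 for 16 genes and above 1 for 5, against 15.5% and 15.1% of all features. The intervals of Taldo1, Pfkm and Pfkfb2 then included 1, with upper bounds of 1.007, 1.021 and 1.0006. Intervals narrow with depth, and 25 of the 34 genes had at least 2000 reads over both libraries. Of these 25 genes, 18 had an interval below 1 and 4 one above 1. Among the 6875 features of at least 2000 reads over both libraries, 29.6% had an interval below 1 and 27.7% one above 1.

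**Figure D1:**
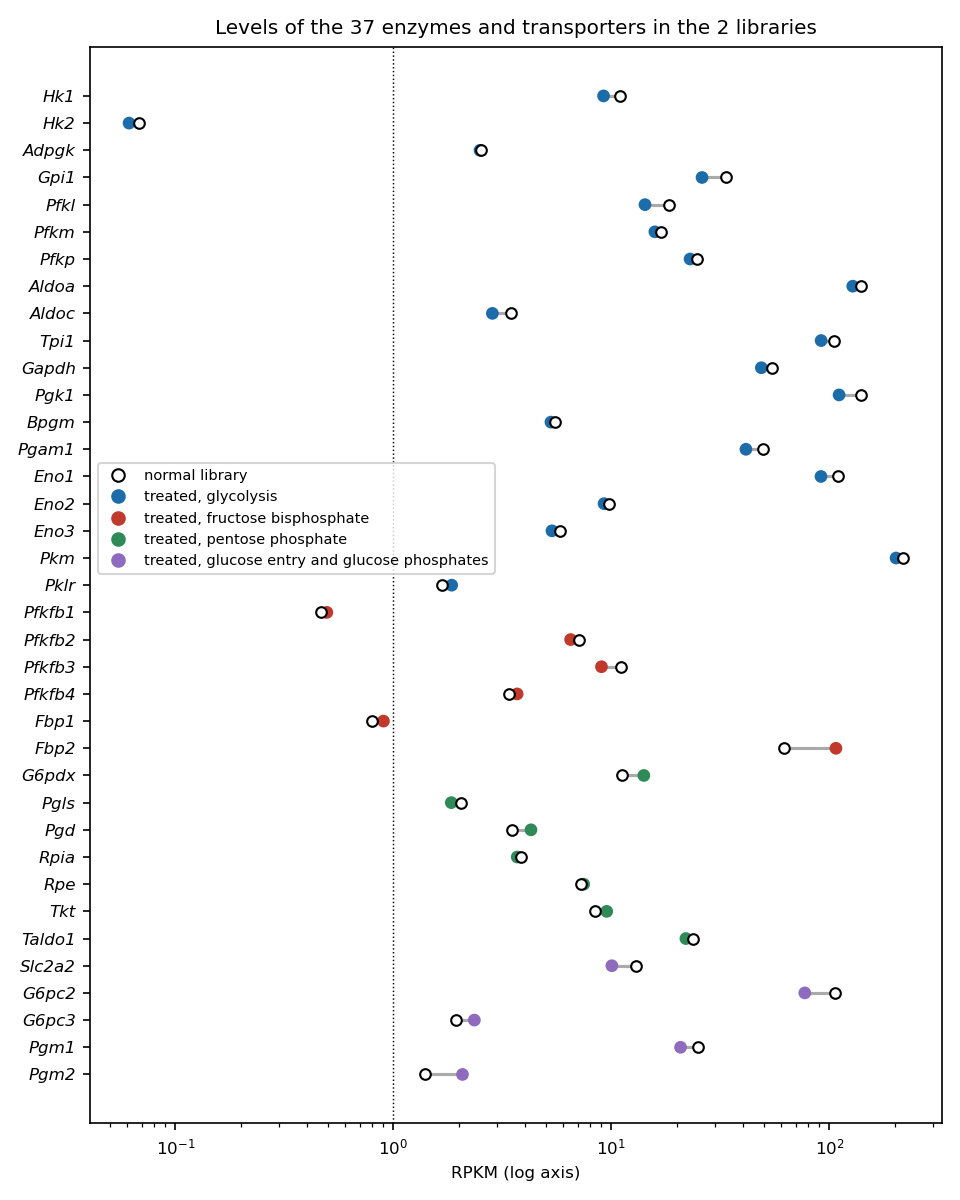
RPKM of the 37 genes on a log axis, with open circles for the normal library and filled circles, coloured by role, for the treated library. The line joins the values of a gene, and the dotted line marks 1 RPKM. Most filled circles of glycolysis sit left of the open ones, whereas Fbp2 moved right from 61.9 to 107.2 RPKM.

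By role the medians ran from -0.26 to 0.037. The 18 measured glycolysis genes had a median log2 ratio of -0.14, with 17 below 0. Their summed RPKM was 948.5 in the normal library versus 830.0 in the treated one. The 7 pentose phosphate genes had one of 0.037, with 4 above 0 and 3 below, and the 4 measured genes of fructose bisphosphates had one of -0.0051, spread from -0.29 to 0.79. The signs of these 2 medians were not stable: without features that overlap the opposite strand they were -0.045 and 0.10. The 5 genes of glucose entry and glucose phosphates had a median of -0.26, from -0.46 to 0.44. The difference between these groups was not tested.

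**Figure D2:**
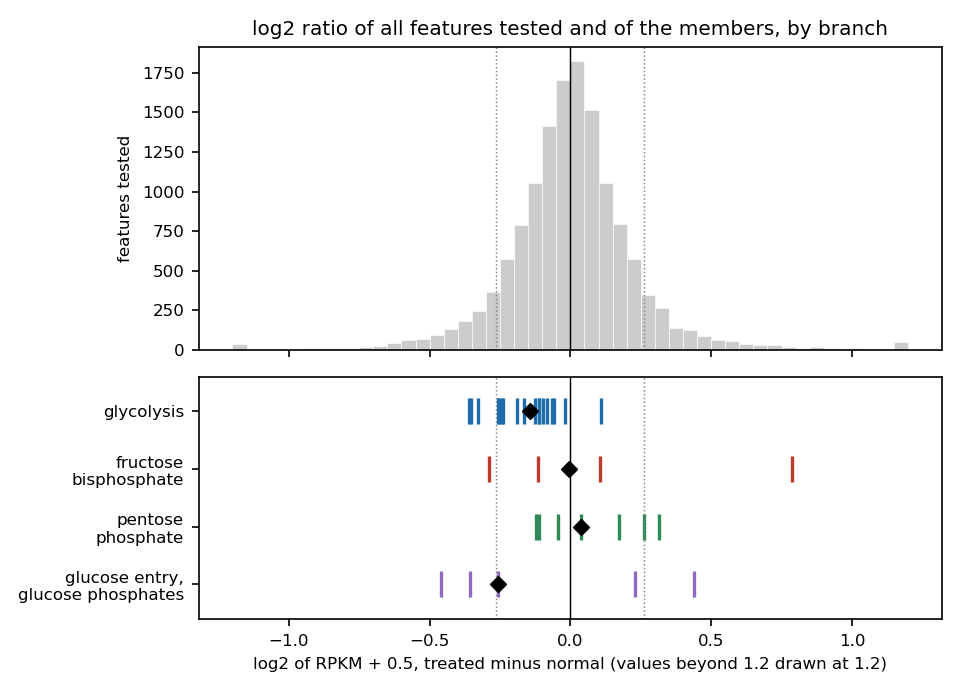
Upper panel, histogram of the log2 ratio, treated minus normal on the scale of RPKM plus 0.5, for the 13947 features tested. Lower panel, a tick for each of the 34 measured genes by role, with a diamond at the group median and dotted lines at 1.2-fold. The glycolysis ticks lie left of 0 apart from Pklr, and Fbp2 stands alone on the right at 0.79.

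Fbp2 showed the clearest difference. It encodes the muscle isozyme of fructose-1,6-bisphosphatase, which removes the phosphate that phosphofructokinase adds. Its level was 61.9 RPKM in the normal library (4017 reads) and 107.2 RPKM in the treated one (6886 reads), a ratio of 1.73 (1.66 to 1.80). Only 0.889% of all features tested had a higher log2 ratio. Fbp1, the liver isozyme, was read at a far lower level, 0.798 and 0.900 RPKM from 60 and 67 reads, with a ratio of 1.13 (0.784 to 1.62). Fbp2 therefore made up 98.7% of the summed fructose-1,6-bisphosphatase RPKM in the normal library versus 99.2% in the treated one. The muscle isozyme was the abundant one in cells whose listed muscle markers Acta1, Ckm, Myh4 and Tnnt3 all lay below 0.2 RPKM in both libraries. Fbp2 lies on the minus strand of chromosome 13, from 62984691 to 63006236 (GRCm39), and none of its listed exons overlaps another feature. Fbp1 follows 6330 bases away on the same strand. The nearest measured features on either side, picked after these values were seen, were Gm5141 with a ratio of 1.06 (0.956 to 1.17) and the aminopeptidase gene Aopep with one of 0.983 (0.906 to 1.07). The intervals of both, like that of Fbp1, included 1.

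The sequences around the starts of the 2 genes are shown because the isozymes differ in level and in ratio. They are RefSeq windows of build GRCm38.p6, an older build than that of the table, with 250 bases before and 50 from the start of each gene. Fbp2 lies at chr13:62858351-62858650 and Fbp1 at chr13:62888233-62888532, both on the minus strand and both written 5′ to 3′ along the gene.
Fbp2: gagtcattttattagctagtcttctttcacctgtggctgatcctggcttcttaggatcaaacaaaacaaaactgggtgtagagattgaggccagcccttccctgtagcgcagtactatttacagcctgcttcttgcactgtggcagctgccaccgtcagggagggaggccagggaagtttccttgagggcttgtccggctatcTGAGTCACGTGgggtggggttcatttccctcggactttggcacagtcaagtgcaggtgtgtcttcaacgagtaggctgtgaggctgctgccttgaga
Fbp1: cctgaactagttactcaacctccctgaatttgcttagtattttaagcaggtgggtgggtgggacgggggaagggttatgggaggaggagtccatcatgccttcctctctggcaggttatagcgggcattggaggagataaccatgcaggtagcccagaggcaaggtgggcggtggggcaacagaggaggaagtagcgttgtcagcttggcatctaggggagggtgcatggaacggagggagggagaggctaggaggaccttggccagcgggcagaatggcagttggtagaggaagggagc
Capitals in Fbp2 mark CACGTG, the E-box core, and TGACTCA, the AP-1 core, the latter found here on the other strand. They overlap in a single run whose first base lies 47 bases before the start. CACGTG reads the same on both strands and was found in 7.15% of all 32851 windows, and TGACTCA in 5.2%. Neither is in the Fbp1 window. Among the 37 genes CACGTG was also in windows of G6pc3, Pfkfb2, Pfkfb3 and Pfkm, whose ratios run from 0.810 to 1.22, so holding it did not go with 1 direction. A match of letters is a description and not a binding site.

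Fbp2 and the phosphofructokinases act in opposite directions on the same sugar, and they differed in opposite directions. Phosphofructokinase RNA comes from Pfkl, named for liver, Pfkm, named for muscle, and Pfkp, named for platelets. Pfkl stood at 18.4 RPKM in the normal library versus 14.3 in the treated one, a ratio of 0.774 (0.743 to 0.806). Pfkm had 16.8 and 15.8 RPKM, and Pfkp, the most abundant isozyme, had 24.6 and 23.0. Both differed less than Pfkl, with ratios of 0.942 (0.890 to 0.998) and 0.934 (0.912 to 0.956). The summed phosphofructokinase RPKM was 59.8 and 53.1, a ratio of 0.887, and the share of Pfkl in it was 30.8% in the normal library versus 26.9% in the treated one. Set against the summed reads of the 3 genes, Fbp2 reads had an odds ratio between the libraries of 1.93 (1.85 to 2.02). This ratio of ratios needs no scaling of the libraries. It was chosen after the values were seen. Exons of Pfkp and Pfkm overlap those of Pitrm1 and Senp1, which run the other way, and no source used here says whether reads were counted by strand.

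Within steps, isozymes were compared by the same odds ratio, treated over normal, of the reads of one gene against those of another. Of 20 possible pairs 6 held a gene under the mean of 1 RPKM, and 14 were compared. The 95% interval left out 1 for 9 of them, and for 8 when intervals were widened to cover all 14 pairs together. Pairs of other genes were not counted. Among single features of at least 2000 reads, 29.6% had an interval below 1 and 27.7% one above 1. Whether 9 of 14 is unusual for pairs of genes was therefore not tested. Pfkl was lower relative to Pfkm, at 0.821 (0.765 to 0.881), and relative to Pfkp, at 0.828 (0.790 to 0.868). Pfkm against Pfkp gave 1.01 (0.948 to 1.07), so a difference between them as large as that of Pfkl lies outside the interval.

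**Figure D3:**
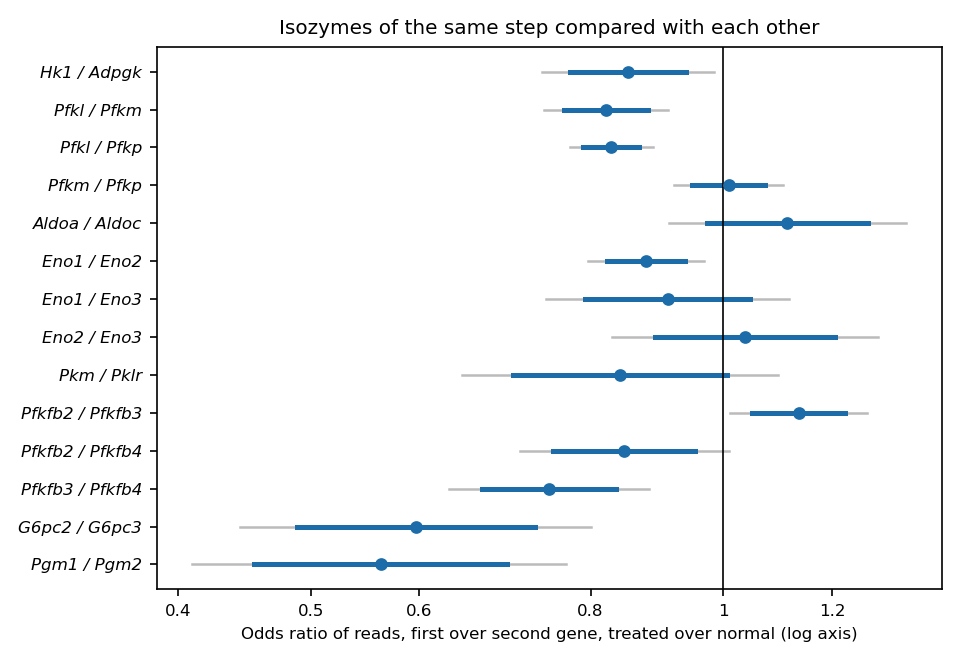
Odds ratio of reads of the first gene against the second, treated over normal, on a log axis, for the 14 isozyme pairs compared. Thick lines are exact 95% intervals and thin lines the same widened to cover all 14 pairs. The pairs Pgm1 and Pgm2, at 0.563, and G6pc2 and G6pc3, at 0.597, lie farthest from 1.

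The PFKFB enzymes make fructose 2,6-bisphosphate, which activates phosphofructokinase and inhibits fructose-1,6-bisphosphatase, and their isozymes moved apart. Pfkfb3, the isozyme with the highest kinase relative to phosphatase activity, was the most abundant at 11.1 RPKM in the normal library versus 9.01 in the treated one, a ratio of 0.810 (0.771 to 0.850). Pfkfb2, named for heart, had 7.08 and 6.50 RPKM, a ratio of 0.919 (0.865 to 0.976), and its exons overlap Gm29427 on the same strand and Yod1 on the opposite strand. Pfkfb4, first described in testis, had 3.41 and 3.70 RPKM, a ratio of 1.09 (0.980 to 1.202). The interval of Pfkfb3 lay below 1, whereas that of Pfkfb4 included 1. Against each other, Pfkfb3 reads over Pfkfb4 reads gave an odds ratio of 0.746 (0.666 to 0.835), and Pfkfb2 over Pfkfb3 gave 1.13 (1.05 to 1.23). Pfkfb2 over Pfkfb4 gave 0.847 (0.752 to 0.953), and this interval reached 1.01 when widened to all pairs. Pfkfb1, the liver isozyme, was low at 0.468 and 0.495 RPKM. Pfkfb3 made up 50.4% of the summed PFKFB level in the normal library versus 45.7% in the treated one.

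Glucose enters beta cells of the mouse through GLUT2 and is then phosphorylated. Slc2a2, which encodes GLUT2, had 13.0 RPKM in the normal library versus 10.1 in the treated one, a ratio of 0.773 (0.734 to 0.814). Hk1, the widely expressed low-Km hexokinase, had 11.0 and 9.21 RPKM, a ratio of 0.840 (0.802 to 0.879). Hk2, the isozyme of muscle and of many tumours, was near absent with 18 and 16 reads, at 0.0683 and 0.0613 RPKM. Adpgk, an ADP-dependent sugar kinase of the endoplasmic reticulum, had 2.53 and 2.50 RPKM with a ratio of 0.985 (0.904 to 1.07), and Hk1 was lower relative to it at an odds ratio of 0.852 (0.773 to 0.940).

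Glucose 6-phosphate, the product of these kinases, can be hydrolysed, isomerised or moved to glucose 1-phosphate. G6pc2, the islet glucose-6-phosphatase that opposes glucose phosphorylation, was one of the more abundant genes of the set, at 106.2 RPKM in the normal library versus 77.1 in the treated one. Its ratio of 0.726 (0.704 to 0.750) was the lowest of the 34 genes. G6pc3, the widely expressed isozyme, had 1.93 and 2.35 RPKM from 190 and 229 reads, and G6pc2 was lower relative to it at an odds ratio of 0.597 (0.489 to 0.729). The phosphoglucomutase genes also differed from each other. Pgm1, on chromosome 4, carried most of the level with 24.9 and 20.8 RPKM, a ratio of 0.834 (0.792 to 0.878). Pgm2, on chromosome 5, had 1.40 and 2.07 RPKM from 160 and 235 reads, a ratio of 1.48 (1.21 to 1.82). The odds ratio of Pgm1 over Pgm2 was 0.563 (0.454 to 0.695), and the share of Pgm2 in their summed RPKM was 5.32% in the normal library versus 9.08% in the treated one. Exons of Pgm1 overlap Itgb3bp on the opposite strand.

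**Figure D4:**
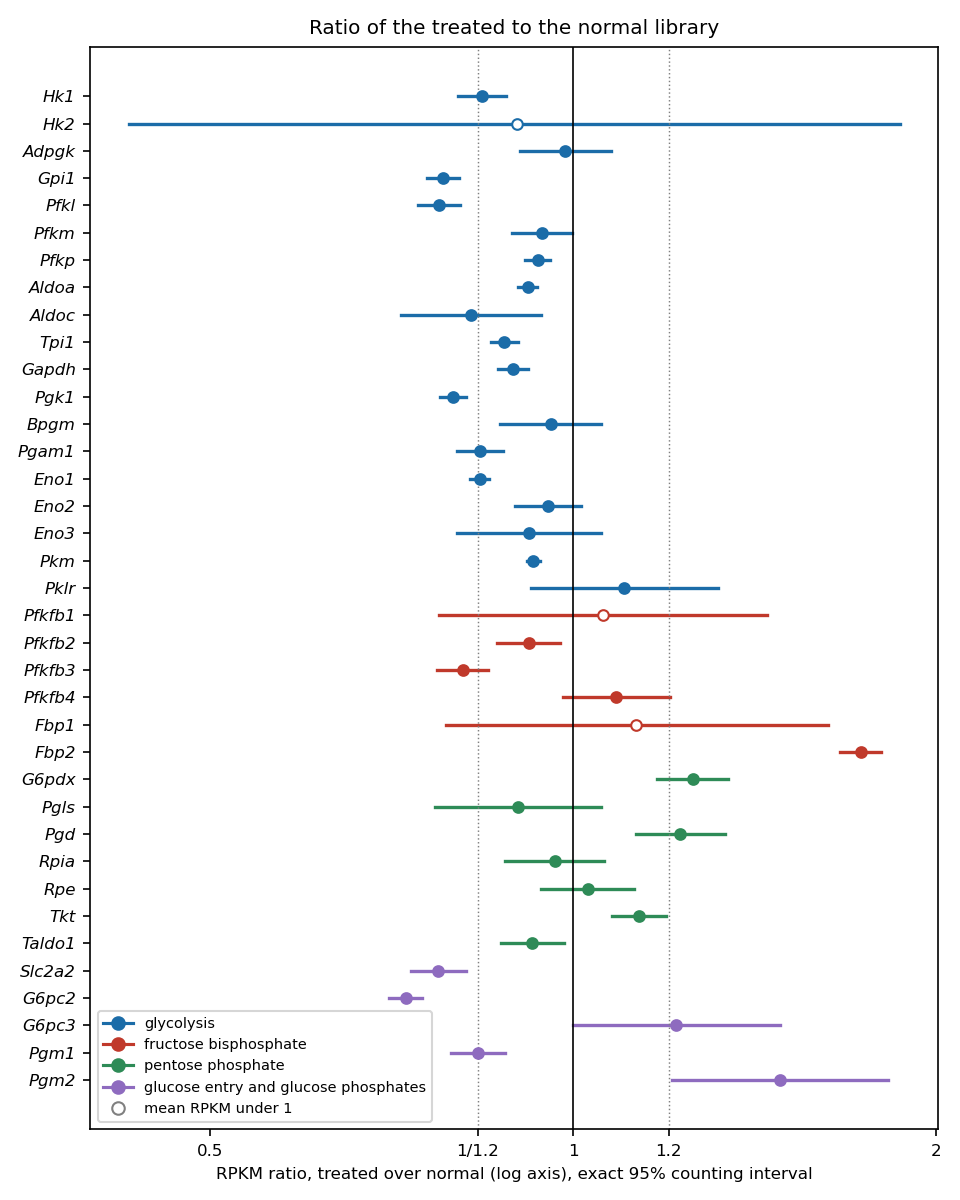
RPKM ratio of the treated to the normal library on a log axis, with exact 95% counting intervals, for the 37 genes coloured by role. Open circles are the 3 genes with a mean RPKM under 1, the solid line marks 1 and the dotted lines 1.2-fold in either direction. G6pc2 at 0.726 and Fbp2 at 1.73 are the extremes.

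In glycolysis the summed level of the isozymes was lower in the treated library for all 11 steps, counting the side step of Bpgm. Ratios ran from 0.780 to 0.958. The highest was that of Bpgm, followed by pyruvate kinase at 0.928. None of the glycolysis genes had an interval above 1. Gpi1, the isomerase at the head of the pathway, had 33.4 RPKM in the normal library versus 26.1 in the treated one, a ratio of 0.780 (0.757 to 0.804). Aldolase came almost wholly from Aldoa, at 139.7 and 128.0 RPKM, a ratio of 0.917 (0.899 to 0.934). Aldoc, the brain isozyme, had 3.46 and 2.85 RPKM, and the odds ratio of Aldoa over Aldoc was 1.11 (0.973 to 1.27), which includes 1.

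The later steps of the pathway work on triose phosphates and pay back ATP. Pgk1, the first ATP-yielding enzyme, had 139.4 RPKM in the normal library versus 110.8 in the treated one, a ratio of 0.795 (0.775 to 0.815). Tpi1 had 104.5 and 91.7 RPKM with a ratio of 0.877 (0.855 to 0.900), Gapdh a ratio of 0.891 (0.866 to 0.917), and Pgam1, the widely expressed phosphoglycerate mutase, one of 0.837 (0.801 to 0.875). Bpgm, which makes the 2,3-bisphosphoglycerate known from red cells, had 5.52 and 5.28 RPKM and a ratio of 0.958 (0.870 to 1.05). Gapdh is often used as a reference gene, and here it was lower by an amount that was larger than its counting error and smaller than that of Pgk1. Several of these genes have near-identical copies in the mouse genome, so that reads could be shared. Copies of at least 95% identity over 300 bases held 13.1% as many reads as Gapdh in the normal library versus 12.3% in the treated one, over 66 listed copies. For Pgam1 these shares were 8.06% and 7.74%, for Eno1 5.62% and 6.26%, and for Pgk1 2.24% in both. With the reads of copies added, the ratios were 0.885 for Gapdh, 0.835 for Pgam1, 0.842 for Eno1 and 0.795 for Pgk1, all within the intervals of the genes alone.

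The promoter of Pgk1 is shown because ACGTG, the core shared by binding sites of hypoxia-inducible factors, is well known in it, and because Pgk1 had the lowest ratio among the genes of these later steps. The window lies at chrX:106186850-106187149 on the plus strand (RefSeq, GRCm38.p6), with ACGTG in capitals on either strand.
Pgk1: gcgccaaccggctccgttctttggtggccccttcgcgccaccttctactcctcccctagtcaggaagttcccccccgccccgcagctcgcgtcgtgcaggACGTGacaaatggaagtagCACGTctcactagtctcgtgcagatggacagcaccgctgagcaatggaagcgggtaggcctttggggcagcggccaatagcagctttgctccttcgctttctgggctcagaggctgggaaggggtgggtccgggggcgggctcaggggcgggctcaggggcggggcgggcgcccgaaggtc
The matches begin 150 and 131 bases before the start, the second on the other strand. All 37 genes matched RefSeq windows, 56 in total, and 22 of the 56 held ACGTG on either strand, a share of 39.3% against 19.6% of all windows. The related core GCGTG was in 27 of 56, a share of 48.2% against 32.4%. ACGTG also lies within CACGTG. Base composition was not matched. Of the 18 genes holding ACGTG 14 had a ratio below 1, among them Pgk1, Aldoa, Pgam1 and Gapdh, and 4 had one above 1, namely Fbp2, G6pc3, G6pdx and Pgm2. Of the 19 genes without it 12 had a ratio below 1 and 7 one above 1. Gpi1 and Pfkl, at 0.780 and 0.774, are among those without it. Both counts include genes with a mean RPKM under 1. Hk2 held ACGTG and lay below 1, whereas Pfkfb1 and Fbp1 lacked it and lay above 1. The intervals of these low genes all included 1. Whether holding ACGTG goes with a lower ratio was not tested.

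Enolase and pyruvate kinase close the pathway. Eno1, the widely expressed enolase, had 109.4 RPKM in the normal library versus 91.6 in the treated one, a ratio of 0.837 (0.822 to 0.852). Eno2, the enolase of neurons and endocrine cells, had 9.71 and 9.26 RPKM with a ratio of 0.954 (0.895 to 1.02), and Eno3, the muscle isozyme, had 5.81 and 5.34 with a ratio of 0.919 (0.801 to 1.05). Eno1 was lower relative to Eno2, at an odds ratio of 0.878 (0.822 to 0.937). Eno1 over Eno3, at 0.911 (0.793 to 1.05), and Eno2 over Eno3, at 1.04 (0.892 to 1.21), included 1. The share of Eno1 in the summed enolase RPKM was 87.6% in the normal library versus 86.2% in the treated one, and 1 of its copies, Gm4735, had 24.1 and 22.6 RPKM. Pkm, the gene of the M1 and M2 pyruvate kinases, was the most abundant of all 37 genes with 218.4 and 202.3 RPKM, a ratio of 0.927 (0.915 to 0.939). It shares exons with Gm49759 on the same strand.

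Pklr, the pyruvate kinase of liver and red cells and a classic target of the glucose-sensing factor ChREBP, was the only measured glycolysis gene above 1. It was low, at 1.68 RPKM in the normal library versus 1.85 in the treated one, from 240 and 262 reads, and its ratio of 1.10 (0.922 to 1.32) included 1. Pkm against Pklr gave an odds ratio of 0.841 (0.702 to 1.01). Exons of Pklr overlap by up to 711 bases those of the channel gene Hcn3 on the opposite strand, whose ratio was 1.202 (1.04 to 1.39), so reads of the pair cannot be assigned without strand. The window of its liver-type start is shown because it holds the known carbohydrate response element, a pair of E-box-like parts. It lies at chr3:89136373-89136672 on the plus strand (RefSeq, GRCm38.p6), and capitals mark the match to the motif made of CACGGG and CCCGTG with 5 bases between them.
Pklr: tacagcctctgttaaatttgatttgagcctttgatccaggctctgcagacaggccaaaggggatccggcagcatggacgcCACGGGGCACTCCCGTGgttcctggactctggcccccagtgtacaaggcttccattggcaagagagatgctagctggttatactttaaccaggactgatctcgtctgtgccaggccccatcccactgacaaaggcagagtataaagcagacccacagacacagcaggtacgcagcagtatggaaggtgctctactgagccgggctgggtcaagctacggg
The match begins 170 bases before the start. Searched on both strands, which read alike, that motif was found in 1 of the 32851 windows, that of Pklr. The other window of Pklr has no match. The shown window was picked as the one that held the motif, so its match was fixed beforehand. The motif allowed no other letters in its parts. Related elements with other letters were not searched for, so other windows may hold them.

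The oxidative arm of the pentose phosphate pathway went the other way from glycolysis at the enzymes that yield NADPH. G6pdx, the glucose-6-phosphate dehydrogenase that commits sugar to the pathway, had 11.2 RPKM in the normal library versus 14.1 in the treated one, a ratio of 1.26 (1.17 to 1.34). Pgd, the second NADPH-yielding dehydrogenase, had 3.49 and 4.28 RPKM, a ratio of 1.23 (1.13 to 1.34). Of all features tested, 6.19% had a higher log2 ratio than G6pdx and 8.83% a higher one than Pgd. Pgls, the lactonase between them, had 2.05 and 1.84 RPKM and a ratio of 0.900 (0.769 to 1.05), so the 3 enzymes of the arm did not share 1 direction. G6pdx and Gpi1 compete for glucose 6-phosphate, and their reads, a pair chosen after the values were seen, had an odds ratio of 1.61 (1.49 to 1.73). Exons of G6pdx overlap by up to 278 bases those of Ikbkg on the opposite strand, whose ratio was 1.14 (1.08 to 1.197). Those of Pgd overlap no other feature, and those of Pgls overlap Niban3 on the same strand.

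The non-oxidative arm was mixed. Tkt, the transketolase, had 8.40 RPKM in the normal library versus 9.52 in the treated one, a ratio of 1.13 (1.08 to 1.19), whereas Taldo1, the transaldolase and the most abundant gene of the pathway, had 23.8 and 22.0 RPKM, a ratio of 0.925 (0.871 to 0.982). Rpia and Rpe, which interconvert the pentose phosphates, had ratios of 0.965 (0.878 to 1.06) and 1.03 (0.941 to 1.12), and their intervals included 1. Rpe exons overlap by up to 558 bases those of Kansl1l on the opposite strand, which had a ratio of 0.796. The summed RPKM of the oxidative arm was 16.8 in the normal library versus 20.2 in the treated one, and that of the non-oxidative arm 43.2 and 42.7.

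A wider list of 60 genes of glucose and sugar phosphate metabolism, outside the 37, had members in both directions. Of the 38 with a mean RPKM of at least 1, 22 had a log2 ratio above 0 and 16 below, with a median of 0.042. Above 0 were thus 57.9%, against 50.7% of all features. At least 1.2-fold higher were 4 and at least 1.2-fold lower 4, each a share of 10.5% against 8.68% and 8.84% of all features, and so near the background. The highest ratios by log2 were those of Rbks, the ribokinase gene that feeds ribose into the pentose phosphates, at 1.59 (1.18 to 2.15), Pgm3, a mutase of the hexosamine pathway, at 1.36 (1.25 to 1.49), Gfpt1, the rate-limiting enzyme of that pathway, at 1.28 (1.24 to 1.32), and the glycerol 3-phosphate dehydrogenase gene Gpd1 at 1.24 (1.15 to 1.33). The lowest were the transporter gene Slc2a1 at 0.699 (0.626 to 0.779), the mitochondrial glycerol 3-phosphate dehydrogenase gene Gpd2 at 0.741 (0.706 to 0.778), the sorbitol dehydrogenase gene Sord at 0.749 (0.688 to 0.815) and the fructokinase gene Khk at 0.766 (0.677 to 0.865).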

How the data were processed

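RNA from 2 MIN6 cultures was sequenced, 1 library per group, from 1 µg of RNA with a stranded mRNA kit, per the labels' protocols. The authors deposited RPKM values in 1 table with exon coordinates and lengths. The tools named are Trimmomatic 0.36 and edgeR 3.12.1, and the build is GRCm39, per the submitters' processing notes. The sources used here name no aligner or counting tool, nor whether strand was used. Columns were assigned by their names, which are the sample titles. RPKM times length gave whole reads for 100% of values within 0.01 read. The listed length was the union of the listed exons for all 37 genes, so long rare isoforms lower the RPKM.

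No test was possible with 1 library per group. Ratios have exact Clopper-Pearson intervals of the treated share of reads, and pairs of genes have exact conditional odds ratio intervals (SciPy 1.17.1). Intervals cover counting error only. The reads carry no molecular identifiers, and 75.9% of counts between 1 and 19 were even, which would arise if both mates of pairs were counted, so intervals may be too narrow. Halved reads were tried. Other alternatives were pseudocounts, scaling, filters, short features, exon overlaps, feature length and a 1.5-fold threshold. The steps were tested on simulated data. Copies were found with BLAST 2.17.0 in GENCODE M21 transcripts of GRCm38, matched by symbol. Promoter windows are from RefSeq. The genes, lists and thresholds were chosen with earlier results of these data known. All 37 genes are named, with the 4 highest and 4 lowest genes of the wider list. Some other genes are not reported here.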

Additional observations from a re-analysis of the deposited data

How the results depend on the processing

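All 34 measured genes kept the sign of their log2 ratio under the 6 alternatives that change the value of a gene itself, which were 2 pseudocounts, 3 scalings of the libraries and removal of the trend with feature length. Filters and the exclusion of short or overlapping features change which genes are compared and not their values, and 25 of the genes had a mean RPKM of at least 5. No scaling moved the median of all features by more than 0.011, whereas the smallest log2 ratio in size was -0.018, for Adpgk. A pseudocount cannot change a sign, and scalings this small could not reach that value. Keeping the sign under the pseudocounts and scalings was therefore fixed beforehand. With a pseudocount of 0.1 there were 5 genes at least 1.2-fold higher in place of 3. Leaving out features that overlap the opposite strand kept 22 of the 34 genes, with 16 below 0 in place of 25. The glycolysis median was then -0.25 in place of -0.14. Of the features that remained, fewer than the 13947, 820 were at least 1.2-fold lower. The pentose phosphate median of 0.037 became -0.045 there and 0.10 with a mean RPKM of at least 5, and the fructose bisphosphate median of -0.0051 became 0.10 and -0.11. The latter was also above 0 with no filter, at 0.072, and under 2 scalings, at 0.0058 and 0.0007. At a threshold of 1.5-fold there were 0 lower and 1 higher gene, with 207 lower and 243 higher over all features. Over all features, the 1233 lower and 1210 higher at 1.2-fold became 580 and 437 with a mean RPKM of at least 5, and 2680 and 2968 with no filter. The number of features compared also changed, from 13947 to fewer at the mean of 5 and to 30868 with no filter. A change in these counts is therefore not a change in share. With reads halved, intervals lay below 1 for 16 genes in place of 19 and above 1 for 5, and 8 of the 14 isozyme pairs had intervals without 1. Genes with few reads, such as Pgm2, Pklr and G6pc3, are limited by depth. No paired analysis was possible because each group has 1 library.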

Other observations

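Genes of the hexosamine pathway, which branches from fructose 6-phosphate to the sugar that modifies proteins as O-GlcNAc, were all above 0 among those measured. Of 7 genes in the wider list 6 had a mean RPKM of at least 1, all 6 had a log2 ratio above 0, and for 5 the counting interval lay above 1. Over all features tested, 50.7% were above 0 and 22.0% had an interval above 1, or 27.7% among features of at least 2000 reads. Of the other groups in the wider list, glycogen genes were below 0 for 4 of 6 measured, and polyol and fructose genes for 3 of 5. Gfpt1 had 18.8 RPKM in the normal library versus 24.03 in the treated one, Pgm3 had 4.26 and 5.81, and Uap1 had 6.16 and 7.14 with a ratio of 1.16 (1.07 to 1.26). Oga, which removes O-GlcNAc, had 60.5 and 72.3 RPKM with a ratio of 1.195 (1.17 to 1.22), and Gnpnat1 a ratio of 1.11 (1.02 to 1.22). Ogt, which adds O-GlcNAc, had a ratio of 1.03 (0.999 to 1.06). Exons of Pgm3, Oga and Gnpnat1 overlap features on the opposite strand. This grouping was made after the values were seen.

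Of the 3 genes of the glycerol phosphate shuttle, the cytosolic Gpd1 was at 10.9 and 13.5 RPKM in the normal and treated libraries, the mitochondrial Gpd2 was at 13.4 and 9.91, and Gpd1l had a ratio of 1.04 (0.911 to 1.18), whose interval includes 1. Exons of Gpd1 and Gpd2 overlap features on the opposite strand.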
